A study of Rattus norvegicus with 6 samples.

Results

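The genes described here are 10 enzymes of glycolysis, from hexokinase to lactate dehydrogenase, in cultured rat atrial fibroblasts in which GPD1L was targeted with an siRNA. Members were the entries of the deposited gene table named Hk1, Hk2, Pfkl, Pfkp, Aldoa, Tpi1, Pgk1, Eno1, Pkm and Ldha, that is 10 of 40154 genes in the table, and all 10 were among the 14852 genes with enough reads to be tested. The cells were isolated from the hearts of Sprague-Dawley rats aged 1 to 3 days by letting the non-myocytes adhere before the myocytes. They were transfected with a control siRNA (si-NC, 3 libraries) or with an siRNA against GPD1L (si-GPD1L, 3 libraries) and collected after 24 h. The labels name the tissue of all 6 samples as atrial muscle and also carry "Atrial differentiation" as the treatment of both groups. They do not say whether the 3 samples of a group came from separate cultures or animals, so the p-values below measure the spread between these samples, which may be technical. The sources do not say whether the last digit in a sample name counts replicates or siRNAs, and replicates were assumed.

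Glycolysis splits glucose into pyruvate in the cytosol. Hexokinase traps glucose as glucose 6-phosphate, phosphofructokinase makes the committed step, aldolase cuts the sugar into the triose phosphates, triosephosphate isomerase converts one triose phosphate into the other, and phosphoglycerate kinase and pyruvate kinase yield ATP. Lactate dehydrogenase then turns pyruvate into lactate and regenerates NAD+. The GPD1L protein resembles glycerol 3-phosphate dehydrogenase, which draws dihydroxyacetone phosphate out of the pathway at the triose step, and many genes of glycolysis are textbook targets of the hypoxia-inducible factor HIF-1.

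In si-GPD1L the change in these enzymes was small. Pfkl, the liver-type subunit of phosphofructokinase, rose 1.26-fold and was the only member called at an adjusted p under 0.05 in edgeR's quasi-likelihood test. Eno1 and Pkm were 17.2% and 15.8% higher without passing that threshold, and the fitted differences of Hk1, Hk2, Pfkp, Aldoa, Pgk1 and Ldha lay between 0.847% and 12.1%. Tpi1 had too few counts to be read. No member approached the 2nd threshold of the study, an absolute log2 fold change over 1, since the largest value was 0.33.

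Library totals lay between 16892255 and 20149732 counts. Among all genes tested, 945 or 6.36% were called, 4.03% higher and 2.33% lower in si-GPD1L, and 1.62% also had an absolute log2 fold change over 1. The split of directions varied with the scaling and the test, with 599 genes called higher and 346 lower by edgeR. With the scaling alone changed it was 595 and 352 under DESeq2 size factors and 526 and 455 under upper-quartile factors. On log2 TPM with limma, where scale and test both differ, it was 629 and 133. With 1 of 10 members called, the share of members stands on a single gene. The targeted gene, Gpd1l, was not called. Its normalized counts (counts scaled to the mean library size) were 262, 332 and 313 in si-NC and 220, 208 and 302 in si-GPD1L, so the third si-GPD1L library lay within the si-NC range. The log2 fold change was -0.31 (SE 0.15, adjusted p 0.234 by edgeR), and the directions given for si-GPD1L rest on libraries so labelled.

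The level of each enzyme was read per gene length, as the deposited TPM (counts per gene length, scaled to a common total). Eno1, which makes phosphoenolpyruvate, had the highest TPM of the 10 in all 6 libraries, at 837 ± 12.8 in si-NC and 1041 ± 41.3 in si-GPD1L (mean ± SD, n = 3). Aldoa, the muscle-type aldolase, followed at 726 ± 29.2 and 814 ± 13.2 TPM. Pkm, the pyruvate kinase gene of most tissues other than liver and red cells, was at 651 ± 38.9 and 798 ± 15.1 TPM. Ldha, the subunit that prevails in skeletal muscle, was at 696 ± 31.3 and 773 ± 10.7 TPM. In si-NC the order of Aldoa, Pkm and Ldha varied between libraries, and the ranges of Ldha overlapped those of Aldoa and Pkm. In si-GPD1L the order was Aldoa, Pkm and Ldha in all 3 libraries, with the lowest Aldoa value of 798 TPM above the highest Ldha value of 782 TPM and Pkm overlapping both. Pgk1 came after them in every library, at 458 ± 25.9 TPM in si-NC and 510 ± 17.01 in si-GPD1L.

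The enzymes of the upper part of the pathway had lower levels. Hk1, the hexokinase of most cells, was at 123 ± 17.6 and 146 ± 3.46 TPM, and Pfkp, the platelet-type phosphofructokinase, was at 120 ± 8.41 and 129 ± 2.60 TPM. These genes changed places in si-NC replicate 1 and did not differ beyond their spread in si-NC. Pfkl was the eighth of 10 in every library, at 58.8 ± 4.70 and 78.5 ± 7.02 TPM, and Hk2, the insulin- and hypoxia-responsive hexokinase, was the ninth, at 24.0 ± 4.05 and 27.0 ± 0.863 TPM. Summed over the 10 genes, TPM ran from 3632 to 3729 in si-NC and from 4201 to 4404 in si-GPD1L. In raw counts the 10 genes took 0.338% to 0.358% of each si-NC library and 0.369% to 0.391% of each si-GPD1L library, so the groups did not overlap on either scale. Summed TPM of the 57 genes in the other pathway lists did not overlap either (5197 to 5398 in si-NC, 5624 to 5790 in si-GPD1L). Their raw counts overlapped, at 0.430% to 0.462% of each si-NC library and 0.445% to 0.461% of each si-GPD1L library.

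**Figure D1:**
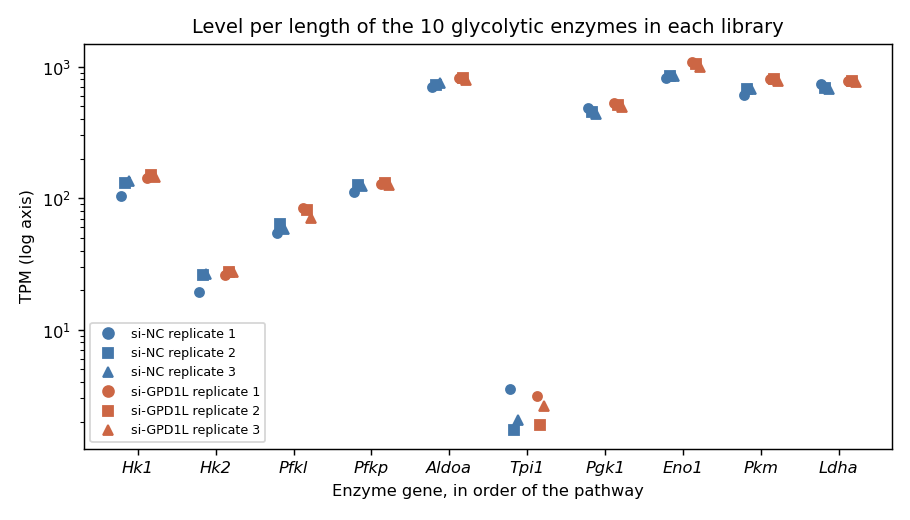
TPM on a log axis for each of the 10 enzyme genes, in pathway order, with 1 point per library (blue si-NC, orange si-GPD1L, shape for the replicate number). Eno1 stands highest near 837 and 1041 TPM and Tpi1 lowest, between 1.72 and 3.55 TPM, far below the enzymes on both sides of it.

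Tpi1 stood apart from the rest. It encodes triosephosphate isomerase, which is needed for both triose phosphates to reach pyruvate. Its raw counts were 43, 18 and 23 in si-NC and 31, 22 and 28 in si-GPD1L, and its TPM placed it between 10963 and 12583 in the order of all genes, where Aldoa and Pgk1 lay between 172 and 302. An entry described as triosephosphate isomerase-like, LOC100911515, held 54 to 78 raw counts in the 6 libraries. Reads that match several near-identical entries can be split or dropped in counting, which was not tested here, so the Tpi1 value is uncertain and cannot be taken as the level of the enzyme. The fitted log2 fold change of Tpi1 was -0.06 with a 95% interval from -0.81 to 0.70 and an adjusted p of 0.948 (edgeR).

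Other members have near-copies too, most of them with few counts. Of 104 entries described as like a member, pseudogenes included, 2 had over 100 counts in a library. The larger was LOC100362738, described as M2 pyruvate kinase-like, with 358 to 471 raw counts and a log2 fold change of 0.24 (SE 0.09, adjusted p 0.126 by edgeR). These entries were looked up after the values of the members had been seen. Pkm makes the M1 and M2 forms of pyruvate kinase by splicing, and gene counts do not separate them.

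The hexokinases came first in the pathway. For Hk1 the normalized counts were 2780, 3265 and 3344 in si-NC and 3456, 3580 and 3487 in si-GPD1L. All 3 si-GPD1L libraries were above all si-NC libraries, and si-NC replicate 1 was the low one. The log2 fold change was 0.16 (SE 0.08), with a 95% interval from -0.01 to 0.34 and an adjusted p of 0.247 by edgeR, and it was 0.085 without si-NC replicate 1. For Hk2 the counts were 1009, 1256 and 1273 in si-NC and 1218, 1280 and 1268 in si-GPD1L. The groups overlapped, and si-NC replicate 1 was again the low library. The fitted difference of Hk2 was 0.09 (SE 0.09, adjusted p 0.603), and it went to -0.01 when si-NC replicate 1 was left out, so no direction is given for it.

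Phosphofructokinase was measured through Pfkl and Pfkp. Pfkl, given on chromosome 20 from 11393860 to 11415889 on the plus strand in the deposited gene table (rat build rn6 per the submitters' notes), had normalized counts of 1325, 1439 and 1290 in si-NC and 1838, 1742 and 1530 in si-GPD1L. The groups did not overlap, and the lowest si-GPD1L library was above the highest si-NC library. Pfkl rose by 0.33 on the log2 scale (SE 0.08, 95% interval 0.15 to 0.51, adjusted p 0.0333 by edgeR), a rise of 26.1% with an interval from 11.3% to 42.7%. The call was lost when any of 4 libraries was left out, with an adjusted p of 0.0552 and 0.0587 on leaving out si-NC replicates 2 and 3 and of 0.177 and 0.167 on leaving out si-GPD1L replicates 1 and 2. In the 6 fits that each left out 1 library, the Pfkl difference stayed between 0.27 and 0.40 on the log2 scale.

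Pfkp was not called. Its normalized counts were 2460, 2606 and 2508 in si-NC and 2566, 2583 and 2488 in si-GPD1L, and the groups overlapped throughout. The log2 fold change was 0.01 (SE 0.07), with an interval from -0.13 to 0.15, which leaves out a rise as large as the 0.33 fitted for Pfkl. Within each library, where any scaling cancels, the TPM ratio of Pfkp to Pfkl was 2.03, 1.98 and 2.13 in si-NC and 1.53, 1.62 and 1.78 in si-GPD1L. The ratio was lower in every si-GPD1L library. On the log2 scale the group means differed by -0.32 (1.03 ± 0.052 against 0.72 ± 0.11, SD, n = 3), with an exact two-sided permutation p of 0.1, which is the smallest that 3 against 3 allows, and 0.15 after adjustment over the 3 isoenzyme ratios compared.

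The other subunit of phosphofructokinase, the muscle-type Pfkm, was at 959, 999 and 998 normalized counts in si-NC and 1039, 975 and 1010 in si-GPD1L, with overlapping groups (log2 fold change 0.03, SE 0.07, adjusted p 0.826 by edgeR). Of the TPM of the 3 subunits together, Pfkl made up 26.1% ± 0.792 in si-NC and 30.5% ± 1.67 in si-GPD1L. The share of Pfkp was 53.4% ± 0.293 against 50.02% ± 1.17, and that of Pfkm 20.5% ± 0.501 against 19.5% ± 0.841 (SD, n = 3). Pfkp thus remained the largest share of the family in every library.

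**Figure D2:**
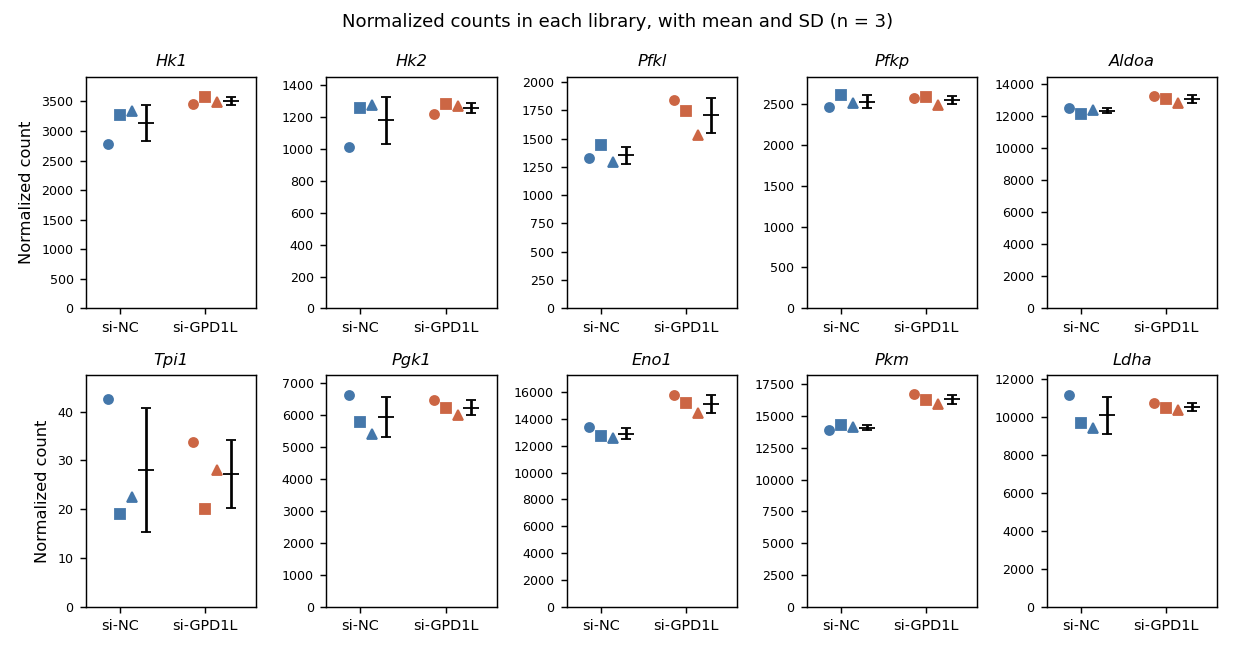
Normalized counts of each of the 10 enzymes in each library, with axes from 0, points for si-NC in blue and si-GPD1L in orange, and the mean and SD of each group in black (n = 3). In Hk1, Pfkl, Aldoa, Eno1 and Pkm every si-GPD1L point lies above every si-NC point, and the relative difference of the group means is largest in Pfkl, at 1351 against 1703.

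In the middle of the pathway the differences were within or near the spread. Aldoa was at 12476, 12129 and 12344 normalized counts in si-NC and at 13256, 13066 and 12762 in si-GPD1L. The groups did not overlap, yet the log2 fold change of 0.08 (SE 0.07, 95% interval -0.07 to 0.23) had an adjusted p of 0.533 by edgeR. Pgk1, which makes the first ATP of the pathway, was at 6645, 5794 and 5420 counts in si-NC and 6472, 6230 and 6005 in si-GPD1L. The highest value of Pgk1 belonged to a si-NC library, and the log2 fold change was 0.07 (SE 0.08, 95% interval -0.12 to 0.25). Leaving out si-NC replicate 1 gave 0.15, and leaving out si-NC replicate 3 gave 0.0026.

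Eno1 and Pkm, which carry out the last steps to pyruvate, were close to the threshold. Eno1 had normalized counts of 13400, 12713 and 12600 in si-NC and 15766, 15170 and 14453 in si-GPD1L. Each si-GPD1L library was above all si-NC libraries, with a log2 fold change of 0.23 (SE 0.07, 95% interval 0.07 to 0.39) and an adjusted p of 0.0854 by edgeR. Pkm had counts of 13876, 14266 and 14109 in si-NC and 16699, 16272 and 15950 in si-GPD1L. Its groups did not overlap either, and the log2 fold change was 0.21 (SE 0.07, 95% interval 0.06 to 0.36) with an adjusted p of 0.0969. Both genes were called by DESeq2's Wald test (adjusted p 0.0347 for Eno1 and 0.0398 for Pkm) and when si-NC replicate 1 was left out (0.00318 and 0.0135), and neither was called when any other library was left out.

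Ldha, at the end of the pathway, was at 11173, 9663 and 9395 normalized counts in si-NC and 10729, 10491 and 10351 in si-GPD1L. The si-NC libraries spread more widely than the si-GPD1L libraries and enclosed them. The log2 fold change was 0.06 (SE 0.08, 95% interval -0.11 to 0.24, adjusted p 0.704 by edgeR), with 0.14 on leaving out si-NC replicate 1 and 0.014 on leaving out si-NC replicate 3. Ldhb, the subunit that prevails in heart muscle, had lower values in si-GPD1L, 947, 1039 and 987 against 1257, 1190 and 1115 in si-NC. Its groups did not overlap, and its log2 fold change was -0.26 (SE 0.07) with an adjusted p of 0.0599, past the threshold in 5 of 14 alternatives.

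The TPM ratio of Ldhb to Ldha was 0.146, 0.160 and 0.155 in si-NC and 0.115, 0.129 and 0.124 in si-GPD1L, lower in all si-GPD1L libraries. The log2 ratios were -2.70 ± 0.066 and -3.03 ± 0.084 (SD, n = 3), a difference of -0.33 with an exact two-sided permutation p of 0.1 (0.15 adjusted over 3 ratios). Ldhb is abundant in cardiomyocytes, and the 10 cardiomyocyte markers examined, none at 0 in any library, together held between 0.192% and 0.206% of each si-NC library and between 0.172% and 0.187% of each si-GPD1L library. Of these markers 8 of 10 had values below 0, beside 7558 of all 14852 genes tested. Of the 10, 1 was called lower, beside 2.33% of all genes tested. It was Pln, a regulator of the calcium pump (log2 fold change -0.44, adjusted p 0.0337 by edgeR). The call was lost on leaving out any 1 of the 3 si-GPD1L libraries and on log2 TPM. The part of these markers in the Ldhb difference was not tested. In bulk RNA, fewer cells of a type and less RNA per cell cannot be told apart. For hexokinase, the TPM ratio of Hk2 to Hk1 lay between 0.188 and 0.199 in si-NC and between 0.182 and 0.188 in si-GPD1L, with an exact two-sided permutation p of 0.2 for a log2 difference of -0.07.

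**Figure D3:**
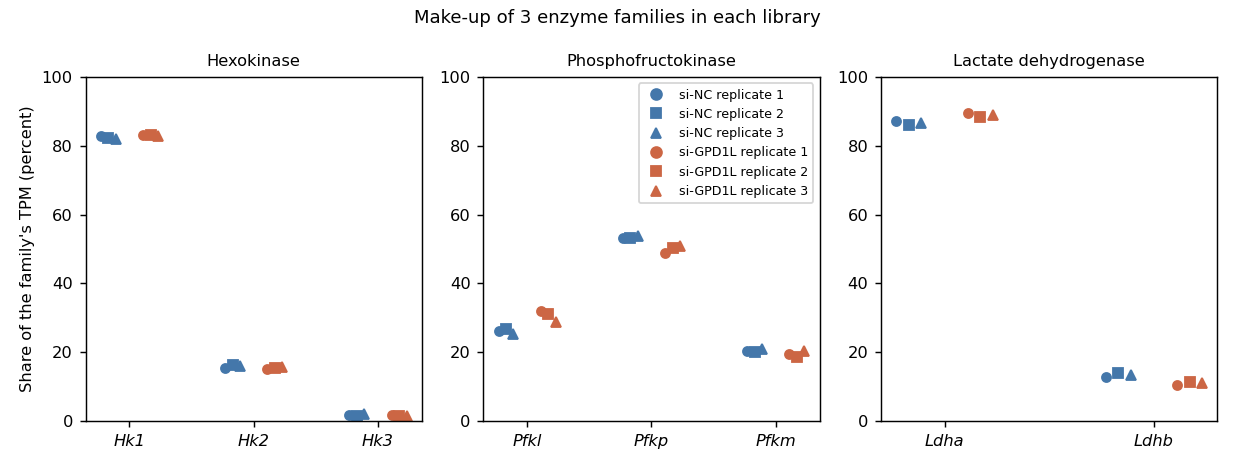
Share of each isoenzyme in the summed TPM of its family (percent, axis from 0 to 100), with 1 point per library (blue si-NC, orange si-GPD1L). Pfkl moves from 26.1% to 30.5% of phosphofructokinase and Ldhb from 13.3% to 10.9% of lactate dehydrogenase, while Hk1 stays near 82.3% and 83.1% of hexokinase.

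Taken as a list, 9 of the 10 members had a log2 fold change above 0, beside 49.1% of all genes tested, and their median was 0.09, beside -0.0049 for all genes tested. The groups did not overlap for 5 of 10 members, all higher in si-GPD1L, where 29.0% of all genes tested did not overlap in either direction and 15.1% did not overlap with si-GPD1L higher. An unadjusted p under 0.05 was reached by 3 of 10 members, Pfkl, Eno1 and Pkm, and by 22.4% of all genes tested. Members share libraries and the scaling of those libraries, so these counts describe the list and are not 10 separate observations. With TPM in place of normalized counts the median of all genes tested moved up by 0.08 on the log2 scale, and that of the members from 0.09 to 0.17. The RNA Rn7sl1 alone had 615 to 15222 TPM in the si-NC libraries and 3.44 to 104 TPM in the si-GPD1L libraries. Its part in the shift of the medians was not tested. On the TPM scale limma called 3 members, Pfkl, Eno1 and Pkm.

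**Figure D4:**
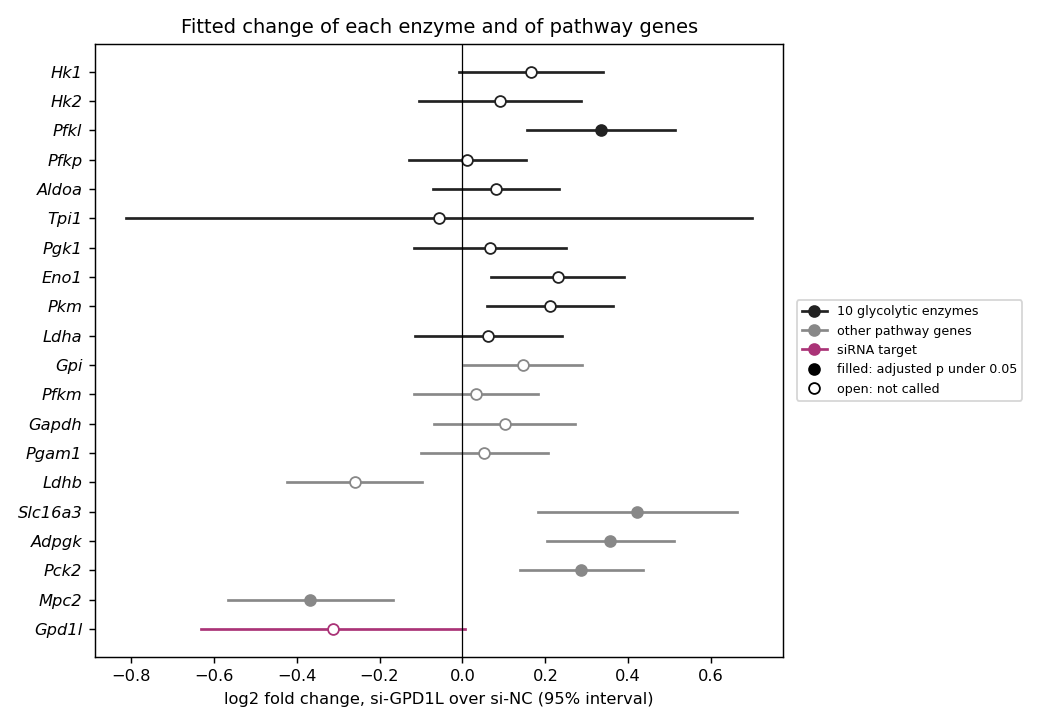
Fitted log2 fold change of si-GPD1L over si-NC with its 95% interval for the 10 enzymes (black), other pathway genes named in the text (grey) and the siRNA target (purple). Filled circles mark an adjusted p under 0.05 by edgeR, which among the 10 enzymes is Pfkl alone at 0.33, and the interval of Tpi1, from -0.81 to 0.70, is the widest.

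The steps between the members had values in the same range. Gpi, which interconverts the hexose phosphates before phosphofructokinase, had a log2 fold change of 0.15 (SE 0.07, adjusted p 0.214). Gapdh, the NAD+-dependent oxidation step, had 0.10 (SE 0.08, adjusted p 0.478), and Pgam1, the mutase before enolase, had 0.05 (SE 0.07, adjusted p 0.714), all by edgeR. Of the 12 tested genes of the other isoenzymes and steps, 0 were called by edgeR's quasi-likelihood test and 2 had an unadjusted p under 0.05 (Gpi and Ldhb). Of all genes tested, 6.36% were called by the quasi-likelihood test and 22.4% had an unadjusted p under 0.05. Of the 12, 0 were called by DESeq2's Wald test and 1, Ldhb, by edgeR's exact test.

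At the entry, exit and control points of the pathway 2 of 14 genes were called, both higher, beside 4.03% of all genes tested. Slc16a3, the lactate exporter MCT4, had normalized counts of 169, 187 and 200 in si-NC and 253, 244 and 249 in si-GPD1L. All si-GPD1L libraries were higher, and Slc16a3 rose by 0.42 on the log2 scale (SE 0.11, adjusted p 0.0416 by edgeR), a call that was lost in 8 of 14 alternatives. Adpgk, an ADP-dependent glucokinase, was at 1042, 1128 and 1018 in si-NC and 1389, 1358 and 1333 in si-GPD1L. It rose by 0.36 (SE 0.07, adjusted p 0.0105) and kept its call in 12 of 14 alternatives.

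Among 23 genes of the branches off the pathway, which cover glycerol phosphate, pyruvate entry into mitochondria, the pentose phosphate path, serine, glycogen and gluconeogenesis, 1 was called higher and 1 lower. Pck2, the mitochondrial phosphoenolpyruvate carboxykinase, was at 2908, 3029 and 3150 in si-NC and 3803, 3703 and 3584 in si-GPD1L and rose by 0.29 (SE 0.07, adjusted p 0.0274 by edgeR). Mpc2, a subunit of the mitochondrial pyruvate carrier, was at 757, 670 and 623 in si-NC and 531, 549 and 509 in si-GPD1L and fell by 0.37 (SE 0.09, adjusted p 0.0347). Its partner subunit Mpc1, named after its values were seen, had a log2 fold change of -0.42 (SE 0.14, adjusted p 0.0958), and was called lower by DESeq2's Wald test, by edgeR's exact test, with no filter and without si-NC replicate 3. The calls of Pck2 and Mpc2 were lost without si-NC replicate 2 and without any of the 3 si-GPD1L libraries, and that of Mpc2 on log2 TPM as well. Over all 49 tested pathway genes outside the members, 3 were called higher and 1 lower, with a median of -0.04. Of all genes tested 4.03% were called higher and 2.33% lower, with a median of -0.0049.

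No call was made in the list of other HIF-1 response genes, which did not include Slc16a3 (counted above among the entry, exit and control points). The 20 tested genes included Hif1a itself, the hydroxylases that mark HIF for decay, Vegfa, Adm and Bnip3. Of the 20, 0 were called by edgeR's quasi-likelihood test, by edgeR's exact test or by DESeq2's Wald test. The quasi-likelihood test called 6.36% of all genes tested. An unadjusted p under 0.05 was reached by 1 of the 20 and by 22.4% of all genes tested. That gene was P4ha1, a subunit of the collagen prolyl hydroxylase named after its values were seen (log2 fold change 0.21, SE 0.08, adjusted p 0.158 by edgeR). The groups did not overlap for 8 of the 20, beside 29.0% of all genes tested. The median of the 20 was -0.06, and 12 of them had values below 0. A p that misses the threshold does not show that these genes were alike in the groups, and the fitted values ran from -0.20 to 0.32.

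**Figure D5:**
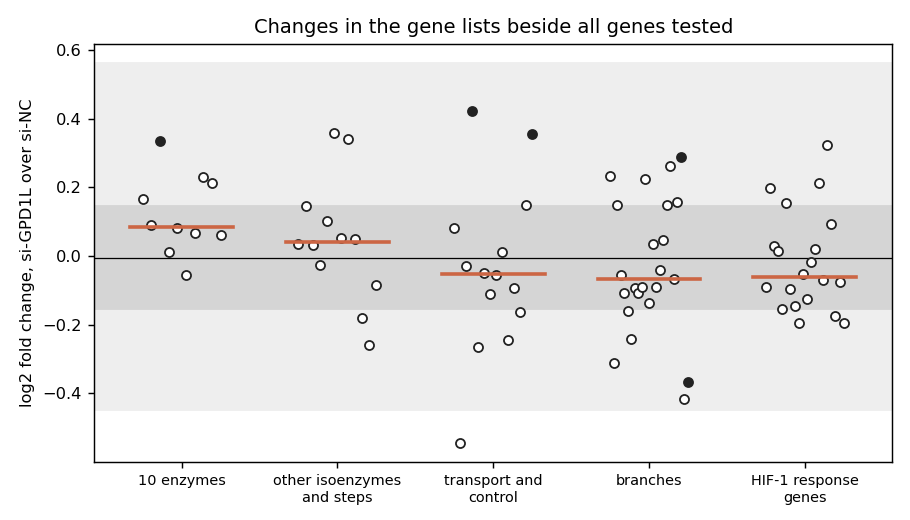
Fitted log2 fold change of each tested gene in 5 gene lists (filled, adjusted p under 0.05 by edgeR), with the list median as an orange line. The black line is the median of all genes tested, dark grey covers the middle 50% of all genes tested and light grey the 5th to 95th percentiles, and the medians run from 0.09 in the 10 enzymes to -0.07 in the branches.

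HIF-1 is known to bind a core of letters written ACGTG or GCGTG, and these were searched on both strands in the RefSeq promoter windows of build GRCr8, from 250 bases before to 50 bases after the start of a gene. A window was found for 9 of the 10 members, 13 windows in all, and Pgk1 was not matched. ACGTG was present in 4 of 13 windows, those of Hk1, Aldoa, Eno1 and Ldha, and in 19.3% of all 33469 windows. GCGTG was present in 5 of 13, those of Pfkl, Pfkp, Eno1 and Ldha, and in 29.7% of all windows. No ACGTG overlapped a GCGTG in the members' windows. The stretches below show the called member, Pfkl, beside Eno1 and Ldha, each 5′ to 3′ on the strand of the gene and with the matched letters in capitals (CACGT is ACGTG, and CACGC is GCGTG, read on the other strand).
Pfkl, chr20:10663738-10663766, plus strand: gggagtctcacgGCGTGcctggggaccct
Pfkl, chr20:10663793-10663821, plus strand: ttgtagactggaGCGTGctccgcccttct
Eno1, chr5:166003231-166003259, plus strand: ggccgccttggtCACGCtcttctcgtgga
Ldha, chr1:106507994-106508022, plus strand: agcccagcctacACGTGggttcccgcacg
Ldha, chr1:106508007-106508035, plus strand: cgtgggttcccgCACGTccgctgggcttc
Both matches of Pfkl are shown, and for the other genes a selection of those before the start. The window of Ldha held 3 matches of each motif, counting a palindrome on both strands, and those of Eno1 held 1 of ACGTG and 2 of GCGTG. The Pfkl letters began 215 and 160 bases before the start, that of Eno1 118, and the 2 shown for Ldha 86 and 73. These are matches of letters, given as a description, and no binding was measured.

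The cells and libraries also differed in other ways beside the enzymes. For comparison with the marker counts below, 4.03% of all genes tested were called higher and 2.33% lower, and 49.1% had values above 0. All 11 fibroblast markers were tested and none was at 0 in a library, with 2 of them lower in si-GPD1L (the matrix proteoglycans Lum, -0.77, adjusted p 0.0058, and Dcn, -0.66, adjusted p 0.0129, by edgeR, the latter call lost without si-GPD1L replicate 1 or 2). Of the 11, 9 had values below 0 and 2 above 0. Their summed share overlapped, at 7.06% to 8.61% of a si-NC library and 8.08% to 8.53% of a si-GPD1L library. All 12 interferon-stimulated genes rose, with Mx2 at 9.42, Ifit1 at 6.30 and Oasl2 at 4.24 on the log2 scale. Of 9 cycling-cell markers 2 rose, Ccnd1 (cyclin D1) by 1.04 and Mcm5 by 0.41, and the summed share of the 9 was 0.0446% to 0.0454% of a si-NC library and 0.0618% to 0.0627% of a si-GPD1L library. The other 7 were not called, 2 of the 9 had values below 0, and the median of the 9 was 0.15. Of 8 endothelial markers tested 4 rose (Plvap by 1.44, Cdh5 by 1.07 and Pecam1 by 0.90 among them), with a summed share of 0.00977% to 0.0122% in si-NC against 0.0133% to 0.0140% in si-GPD1L. Of 8 smooth muscle and pericyte markers 2 rose (Cspg4 by 0.80 and Mcam by 0.27) and the other 6 had values below 0, 2 of which (Myh11 and Abcc9) were called lower by DESeq2's Wald test and edgeR's exact test, with a summed share of 0.0796% to 0.0914% against 0.0874% to 0.0926%. Of 8 macrophage markers 0 were called by edgeR, by DESeq2's Wald test or by edgeR's exact test, and 0 had an unadjusted p under 0.05, with a summed share of 0.0153% to 0.0166% against 0.0131% to 0.0188%. The calls of Mcm5 and Pecam1 were lost on leaving out si-NC replicate 2 or either of si-GPD1L replicates 2 and 3, that of Mcm5 on log2 TPM too, and that of Mcam in 7 of 14 alternatives. The part of these differences in the values of Pfkl and the other enzymes was not tested.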

How the data were processed

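Polyadenylated RNA was sequenced on an Illumina platform. Per the submitters' processing notes the tools were bcl2fastq, HISAT2 2.1.0 and HTSeq 0.12.4 with rat build rn6, and whether counting used strand is not given in the sources used here. The authors deposited raw counts per gene and per transcript, whole numbers without normalization. The deposited TPM values equalled the counts per unit of gene length, rescaled to the same total in each library (largest difference 4.91e-11) and served for levels per length. The columns of the authors' own comparison (fold changes, p-values) and the enrichment tables were not used.

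Counts of 6 libraries were filtered by filterByExpr, normalized by TMM and tested with edgeR 4.0.16 (R 4.3.3, quasi-likelihood F test, Benjamini-Hochberg adjustment over 14852 genes). A gene was called at an adjusted p under 0.05. Calls that also passed 1 in absolute log2 fold change were counted too. Isoenzyme ratios were compared by exact permutation. The spread between libraries of 1 group, as a biological coefficient of variation, was 0.0894. Intervals are 95%. Alternatives were DESeq2 1.42.0 size factors and Wald test, upper-quartile factors, edgeR's exact test, other filters, the transcript table, a replicate block and each library left out. A test of log2(TPM + 0.5) with limma 3.58.1 was chosen after seeing the data. The steps were tested on simulated data, in which the changed genes moved by more than any member did here. Figures were drawn with matplotlib 3.10.9.

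The members and gene lists were chosen with earlier results of these data known. Named genes were the members, Gpd1l, Gpi, Gapdh, Pgam1, Pfkm and Ldhb, pathway and HIF-1 genes called, and, from each marker list, up to 3 called genes by smallest adjusted p. Promoter windows were taken from RefSeq.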

Additional observations from a re-analysis of the deposited data

How the results depend on the processing

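Under DESeq2 size factors, upper-quartile factors, edgeR's exact test, both other filters and the replicate block, Pfkl was the only member called. Genes called numbered 945, against 1528 by the exact test, 1929 with no filter beyond 1 count, 240 with the fold threshold added and 361 to 1531 with a library left out (299 to 861 higher and 53 to 670 lower). Members called were 1, against 3 by DESeq2's Wald test and 3 on log2 TPM with limma (Pfkl, Eno1 and Pkm both times), 0 with the fold threshold and 0 to 3 with a library left out. Without a library, other pathway genes called ran from 0 to 6 (4 with all libraries) and HIF-1 response genes from 0 to 1, with 1 on log2 TPM with limma, P4ha1. Signs turned in values near 0. Hk2 ran from -0.011 (without si-NC replicate 1) to 0.15 with a library left out. Pfkp was -0.012 with upper-quartile factors and -0.0072 in the transcript table, and ran from -0.0070 (without si-NC replicate 1) to 0.034 with a library left out. Tpi1 was 0.080 on log2 TPM with limma and 0.13 without si-GPD1L replicate 2, and ran from -0.26 to 0.38 (without si-NC replicate 1) with a library left out. The cause was not tested. Left-out libraries moved Gpd1l between -0.50 and -0.21 and the ratio differences between -0.10 and -0.06 (Hk2 to Hk1), -0.38 and -0.27 (Pfkp to Pfkl) and -0.36 and -0.28 (Ldhb to Ldha).

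No pairing of the libraries by replicate number was seen, which does not show that they were unpaired. Correlations of same-numbered deviations were -0.012, -0.0059 and 0.043, and those of other pairs lay between -0.044 and 0.048. With the replicate block 921 genes, 1 member (Pfkl) and 3 other pathway genes were called, Slc16a3 (adjusted p 0.0609 by edgeR) being the pathway call lost. Mcam lost its call too (adjusted p 0.0599 by edgeR). Myh11 and Abcc9 gained a call with the block, both lower in si-GPD1L. The block changed no other call of a listed gene that is named here.

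The value of Tpi1 is limited by its low count, 18 to 43 raw counts in a library. The cause of that low count was not tested. For the members with the most counts the spread between libraries set the intervals.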
